A study of Mus musculus with 4 samples.

Results

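Glycosyltransferases of mucin and glycolipid glycans are Golgi enzymes that build sugar chains one sugar at a time. Their genes were taken by symbol: every gene whose name begins with B3gal, B3gnt, B4gal, Galnt, Gcnt, St3gal, St6gal or St8sia, or with Fut and a digit. The arrays carried 80 such genes, among 21153 named genes in all. Of these, 63 were well above background on at least 2 of 4 arrays and were tested, among 14409 tested genes. The other 17 were not tested: B4galnt4 and St6gal2 cleared background on 1 array, and 15 on none (B3galt1, B3galt2, B3gnt4, Fut4-ps1, Fut9, Galnt9, Galnt13, Galnt17, Galntl5, Gcnt4, Gcnt7, St6galnac3, St6galnac5, St8sia2 and St8sia5). The family was drawn up around B3galt5, a galactosyltransferase gene whose higher signal in knockout intestine was already known from these same arrays. All values of B3galt5 between genotypes are therefore given as a description. Where B3galt5 appears in counts of genes passing a threshold, that is no test of it.

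RNA came from small intestine of Cyp3a-/- mice, which lack the Cyp3a cluster of neighbouring cytochrome P450 genes, and of wild type mice. Each genotype had 2 samples, called knockout 1 and 2 and wild type 1 and 2 here, and the design text states that separate animals were used. The number of animals behind each array, and their strain, age and sex, are not given in the sources used here, nor is the stretch of intestine taken. Each sample was labelled with Cy3 and read on its own 1-colour Agilent mouse array. Having only 2 arrays per genotype limits how precise any value can be. A level is the log2 signal of a gene's brightest probe minus the 75th percentile of its array. Since probes differ in how they bind, levels are compared between arrays and not between genes. Differences are knockout minus wild type.

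In the intestine, these enzymes decorate mucins and the lipids of the absorptive cell surface. Galnt enzymes start a mucin chain by placing a GalNAc on a serine or threonine, and galactose or GlcNAc is then added to form the cores. Gcnt enzymes branch the cores, B3gnt and B4galt enzymes lengthen them, and sialyltransferases and fucosyltransferases cap the ends. Glycolipids start from glucosylceramide and are extended by other members of the same families. The capped ends include blood group antigens and receptors for gut microbes.

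The arrays were checked against their labels first. Cyp3a11, a P450 gene of the deleted cluster, had levels of -5.77 and -4.52 in knockout 1 and 2, not well above background, against 5.05 and 5.78 in wild type 1 and 2. The 6 genes that passed limma's threshold, an adjusted p under 0.05, were all Cyp3a genes and all lower in knockout, which is 0.0416% of tested genes. Knockout 1 stood apart: across genes it correlated at 0.948 with knockout 2, where the wild-type arrays correlated at 0.979 with each other. With wild type 1 and 2, knockout 1 correlated at 0.966 and 0.962 and knockout 2 at 0.981 and 0.980. The tissue label fits the enterocyte markers, as all 17 on the list were well above background. Of 8 stomach markers, 7 were tested, with a summed signal of 446 and 2237 in knockout 1 and 2 and 1182 and 1306 in wild type 1 and 2 (in units of each array's 75th percentile). In knockout 1 that sum was nearly all Tff2, at a level of 8.79. Gkn1, Gkn2 and Cblif (-6.81, -6.64 and -6.33) lay there under the array's lowest signal well above background, -5.65. Gkn2, a gastric mucous cell gene chosen after its values were seen, had levels of -6.64 and 7.24 in knockout 1 and 2 and 1.27 and 6.49 in wild type 1 and 2. Over the 7 stomach genes the median gap was 6.24 between the knockout arrays and 3.50 between the wild-type arrays (log2), beside a median difference of -0.84 between genotypes. These gaps include values at background, in wild type 1 as well (Cblif at -6.52, under that array's limit of -5.07), so their size is uncertain. In whole tissue, fewer cells of a type and less RNA per cell cannot be told apart.

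None of the 63 tested glycosyltransferase genes passed the threshold, 0 higher and 0 lower, beside 0% and 0.0416% of all tested genes. By limma, 1 member was higher and 0 were lower at an unadjusted p under 0.05, beside 0.167% and 0.271% of all tested genes, and that member was B3galt5, from which nothing is read because it was chosen on this contrast. The median difference of the 63 genes was -0.09, where the median over all tested genes was 0.04. Differences of the 62 members other than B3galt5 ran from -0.96 for Galnt12 to 0.82 for B3gnt6. The 5th and 95th percentiles of all tested genes were -0.57 and 0.41.

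B3galt5 had the highest difference of the family. The enzyme adds galactose to GlcNAc to make type 1 chains, and in human colon it provides the backbone of Lewis antigens. Its 3 RefSeq starts in the mouse (build GRCm38.p6, plus strand) are shown because the gene stood furthest from its relatives. Each window covers 250 bases before to 50 bases after a start, and the array does not tell which start was used. Capitals mark the nuclear receptor half-sites AGGTCA and AGTTCA on either strand.
B3galt5 window at chr16:96235551-96235850: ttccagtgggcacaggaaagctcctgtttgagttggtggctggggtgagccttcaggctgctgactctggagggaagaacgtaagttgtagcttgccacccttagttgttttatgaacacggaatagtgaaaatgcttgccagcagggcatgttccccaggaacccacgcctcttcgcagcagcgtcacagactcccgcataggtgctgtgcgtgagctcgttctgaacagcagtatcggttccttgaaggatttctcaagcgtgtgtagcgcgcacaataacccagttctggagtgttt
B3galt5 window at chr16:96273263-96273562: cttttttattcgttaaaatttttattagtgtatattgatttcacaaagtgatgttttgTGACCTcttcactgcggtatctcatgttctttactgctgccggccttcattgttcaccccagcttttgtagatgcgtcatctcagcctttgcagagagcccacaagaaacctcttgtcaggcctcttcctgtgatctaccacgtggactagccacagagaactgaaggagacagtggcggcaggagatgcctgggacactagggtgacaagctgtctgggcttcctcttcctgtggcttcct
B3galt5 window at chr16:96280782-96281081: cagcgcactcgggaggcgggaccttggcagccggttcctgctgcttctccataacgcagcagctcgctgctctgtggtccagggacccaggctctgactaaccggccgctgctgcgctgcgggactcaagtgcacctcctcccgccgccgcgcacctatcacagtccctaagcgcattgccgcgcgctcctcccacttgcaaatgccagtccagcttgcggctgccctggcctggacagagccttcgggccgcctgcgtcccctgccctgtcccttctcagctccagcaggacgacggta
The second window held 1 half-site of the first kind and the other windows held none, while 16.3% of 32851 RefSeq windows of that length held AGGTCA and 13.99% held AGTTCA. Letters of the HNF1 half-site GTTAAT, the CDX motif TTTATNG, the GATA motif AGATAA and the TATA box TATAAA were found in 0 of the 3 windows. These were held by 7.10%, 10.9%, 11.2% and 13.6% of all windows. The receptor half-sites were searched after the other 4 motifs had given no match. Of the family, 58 genes matched windows, 78 in all, and 7.69% of those held AGGTCA. A match of letters is no binding site, and a missing one says only that these letters are not in the window.

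B3galt5 had levels of 1.76 and -0.16 in knockout 1 and 2, against -1.31 and -0.62 in wild type 1 and 2. The genotypes did not overlap, and knockout 1 lay far above the other arrays. The mean was 0.80 ± 1.36 in knockout and -0.96 ± 0.49 in wild type (SD, n = 2 each). This is a 3.40-fold higher mean signal, or 1.77 on the log2 scale. Against the wild-type mean, knockout 1 was 6.61-fold higher and knockout 2 was 1.75-fold higher, so the size depended on which knockout array was read. Of 14409 tested genes, 7 had a higher difference, 4 lay higher in knockout 1 and 269 lay higher in knockout 2. Wild type 2 and knockout 1 shared a slide, and within it the difference was 2.38. Wild type 1 and knockout 2 were each on a separate slide. Gaps between arrays of the same genotype therefore cannot be told apart from differences between slides. The arrays hold 1 B3galt5 probe, so no second probe bears on the value.

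**Figure D1:**
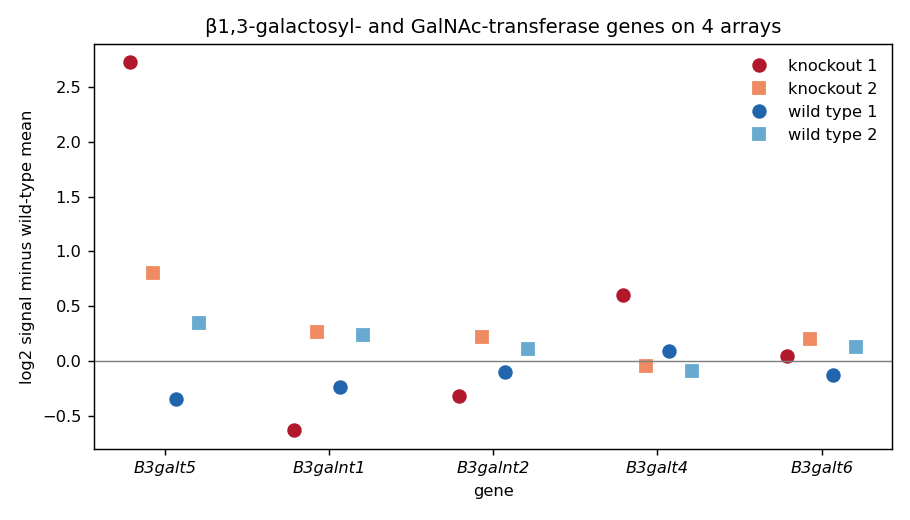
Level of each tested B3gal gene on the 4 arrays, as log2 signal minus the gene's wild-type mean (vertical axis), with 1 point per array. B3galt5 lies 2.73 and 0.81 above the wild-type mean in knockout 1 and 2, while the knockout points of the other 4 genes stay between -0.63 and 0.60.

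The other B3gal genes lay within 1 of their wild-type means on both knockout arrays. B3galt4, which makes the ganglioside GM1, had levels of -0.28 and -0.92 in knockout 1 and 2 and -0.79 and -0.97 in wild type 1 and 2. Its difference was 0.28 (SE 0.34), with knockout 2 between the wild-type arrays, and its second probe gave 0.24. B3galt6, an enzyme of the proteoglycan linker, had levels of -2.94 and -2.79 in knockout 1 and 2 and -3.12 and -2.86 in wild type 1 and 2. The genotypes overlapped, with a difference of 0.12 (SE 0.37).

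B3galnt1 makes the glycolipid globoside. Its levels were -1.55 and -0.66 in knockout 1 and 2 and -1.15 and -0.68 in wild type 1 and 2. Knockout 1 was the lowest array and knockout 2 the highest (difference -0.19, SE 0.40). B3galnt2, which acts on the sugar chains of dystroglycan, had levels of -0.51 and 0.03 in knockout 1 and 2, around the wild-type values of -0.29 and -0.08 (difference -0.05, SE 0.31). The 4 relatives had a median difference of 0.04. By limma each had an adjusted p of 1.00, which does not show that they are unchanged.

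The genes next to B3galt5 in the reference annotation are given beside it. Of 4 protein-coding genes on each side, 6 were tested, and their differences ran from -0.49 for Lca5l to 0.45 for Pcp4. Igsf5, the next gene and a cell adhesion gene, had levels of 3.36 and 2.63 in knockout 1 and 2 and 2.77 and 2.86 in wild type 1 and 2. Sh3bgr, on the other side, had a difference of -0.02. Knockout 1 was the highest array for Igsf5 and the lowest for Sh3bgr. The family is spread over 19 chromosomes, with 5 members on chromosome 5, which holds the deleted cluster. The nearest, Galnt17, is separated from it by 222 protein-coding genes and was not well above background. Cyp3a13, another Cyp3a gene, was left out of that count. It had levels of -0.53 and -2.57 in knockout 1 and 2 and 4.67 and 4.98 in wild type 1 and 2.

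The genes that start mucin chains were mostly lower in knockout 1. Of 19 Galnt genes on the array, 15 were tested, 3 with positive and 12 with negative differences. None passed the threshold. Their median difference was -0.35, or -0.78 within the slide shared by knockout 1 and wild type 2, with medians relative to wild type of -0.56 in knockout 1 and -0.0013 in knockout 2.

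Galnt12, an initiating enzyme of the digestive tract, had levels of 2.16 and 4.22 in knockout 1 and 2 and 3.82 and 4.47 in wild type 1 and 2. Only knockout 1 lay outside the wild-type range (difference -0.96, SE 0.67). Its second probe gave 1.498 and 3.43 in knockout 1 and 2 and 3.09 and 3.75 in wild type 1 and 2. Both Galnt12 probes thus placed knockout 1 about equally low, by 1.99 and 1.92. Galnt5 had levels of -1.24 and 0.27 in knockout 1 and 2 and -0.08 and 0.62 in wild type 1 and 2. Galnt3, an enzyme with broad targets that include the hormone FGF23, had levels of 1.32 and 2.51 in knockout 1 and 2 and 2.05 and 3.03 in wild type 1 and 2. The differences were -0.75 (SE 0.54) for Galnt5 and -0.62 (SE 0.51) for Galnt3, each with knockout 1 as the lowest array.

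Galnt7 adds GalNAc to peptides that already carry GalNAc. Its levels were 3.32 and 3.97 in knockout 1 and 2 and 3.65 and 4.11 in wild type 1 and 2, again lowest in knockout 1 (difference -0.23, SE 0.35). Genotypes did not overlap for 2 of 15 tested Galnt genes, beside 14.7% of all tested genes. These were Galnt10 below and Galnt18 above, chosen after their values were seen, with differences of -0.21 (SE 0.28) and 0.36 (SE 0.38).

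Of the 3 tested branching genes, Gcnt1 and Gcnt3 were lowest in knockout 1, and Gcnt2 was highest there on the probe used. Gcnt1 makes the core 2 branch. It had levels of -1.32 and 0.42 in knockout 1 and 2 and -0.08 and 0.65 in wild type 1 and 2 (difference -0.74, SE 0.60). A second Gcnt1 probe gave -3.89 and -2.06 in knockout 1 and 2 and -2.59 and -1.99 in wild type 1 and 2. Both probes put knockout 1 lowest, by 1.61 and 1.60 below the wild-type mean. Gcnt3, the mucin-type enzyme of core 2 and core 4, had levels of 2.39 and 3.67 in knockout 1 and 2 and 2.99 and 4.18 in wild type 1 and 2 (difference -0.56, SE 0.56). Gcnt2, which branches linear chains into I antigen, had levels of 0.66 and 0.41 in knockout 1 and 2 and 0.62 and 0.28 in wild type 1 and 2 (difference 0.09, SE 0.29). Its second probe gave -0.29 and had knockout 1 as the lowest array, so the probes disagree. The 3 tested Gcnt genes had a median difference of -0.56, or -1.79 within the shared slide, with medians of -1.19 in knockout 1 and 0.08 in knockout 2.

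**Figure D2:**
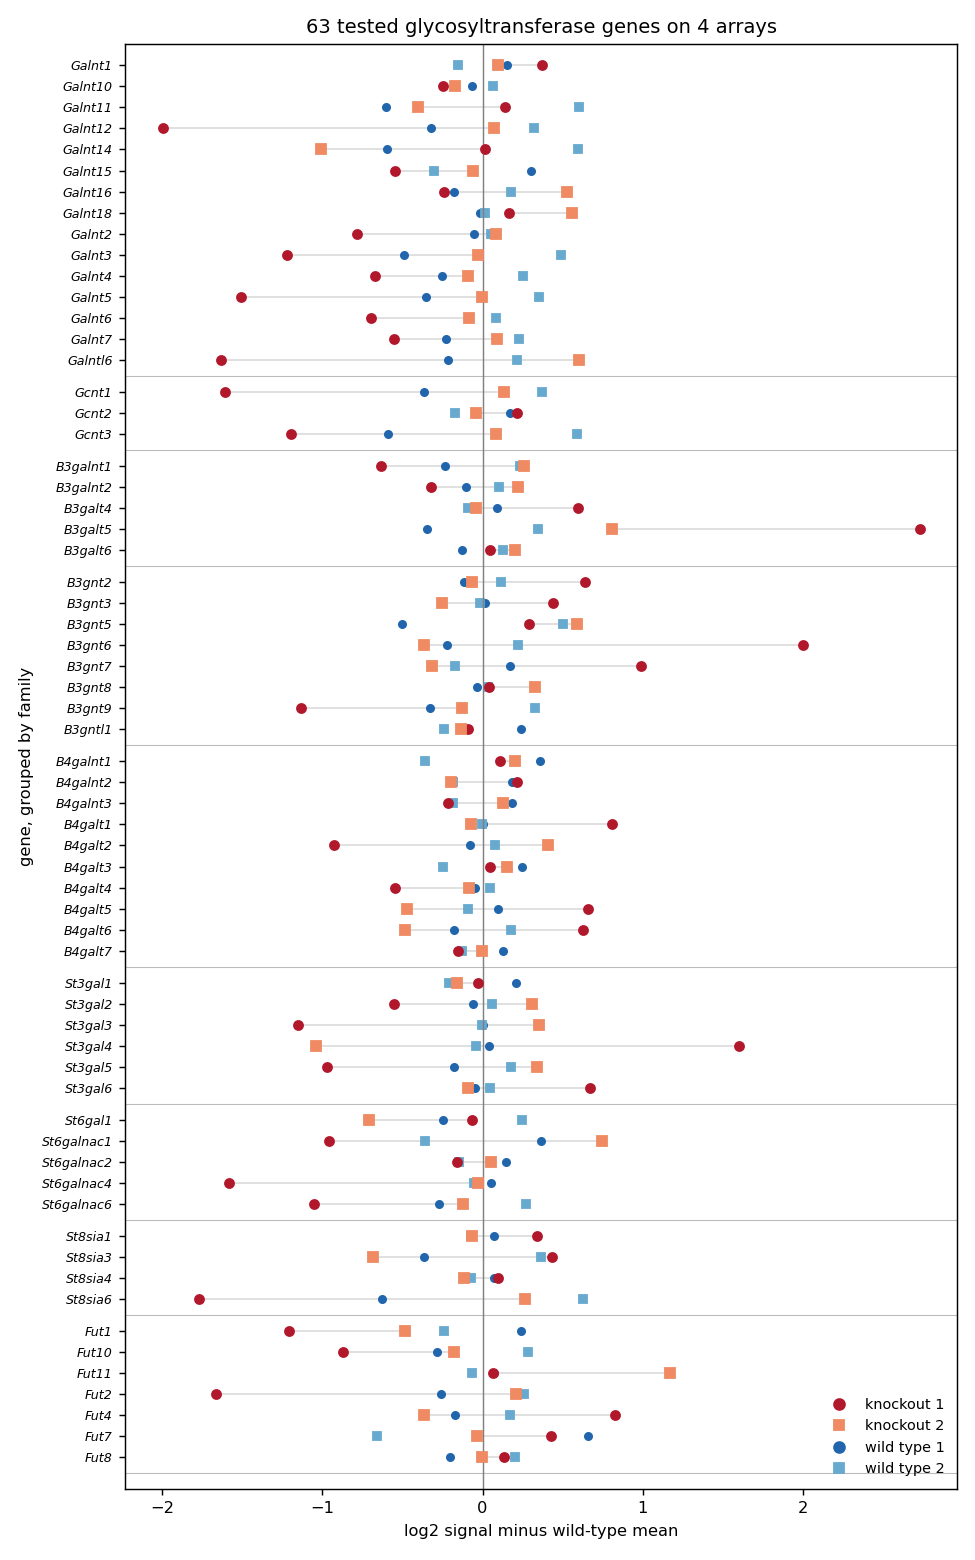
Each of the 63 tested genes (rows, grouped by family) on the 4 arrays, as log2 signal minus the gene's wild-type mean (horizontal axis). A grey line joins the 2 knockout arrays. In 15 genes knockout 1 alone lies 1 or more from the wild-type mean, in 2 genes knockout 2 alone does, and in 1 gene, St3gal4, both do, in opposite directions.

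For Galnt and Gcnt genes, the order of the 2 arrays within each genotype was often that of the stomach markers. In 13 of 18 tested Galnt and Gcnt genes, wild type 2 lay above wild type 1 and knockout 2 above knockout 1. That held for 6 of 7 stomach markers and for 23.6% of all tested genes. Over all 62 tested members other than B3galt5, those 18 included, it held for 27, or 43.5%. Stomach markers were not alone in this order. For smooth muscle and fibroblast markers, the median of knockout 1 minus knockout 2 was -1.57 and -1.07. Wild type 2 lay above the wild-type mean there by medians of 0.13 and 0.29. Enterocyte markers had the opposite order, with medians of 1.54 and -0.26. The order across genotypes was not the same: the stomach markers had medians of -3.79 and 2.28 relative to wild type in knockout 1 and 2, with knockout 2 the highest array for all 7, and the Galnt median in knockout 2 was -0.0013. Among mucins, the glycoproteins these enzymes act on, the gastric gene Muc5ac, chosen after its values were seen, had levels of -4.02 and 3.48 in knockout 1 and 2 and -3.41 and 2.94 in wild type 1 and 2. Muc5b, another secreted mucin, had levels of -1.94 and 1.103 in knockout 1 and 2 and 0.87 and 1.16 in wild type 1 and 2. Muc2, the main goblet cell mucin, ran the other way, with 3.74 and 2.13 in knockout 1 and 2 and 2.89 and 2.59 in wild type 1 and 2. The part of stomach-type tissue, muscle or fibroblasts in the low Galnt and Gcnt signals of knockout 1 was not tested.

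**Figure D3:**
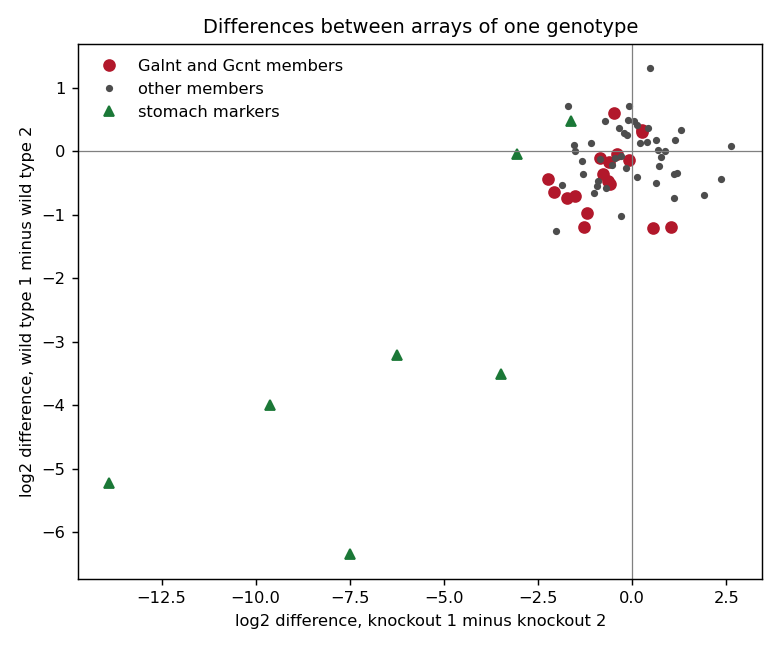
Difference between the 2 arrays of each genotype for tested members and stomach markers, knockout 1 minus knockout 2 (horizontal, log2) and wild type 1 minus wild type 2 (vertical, log2). The lower left area, where array 2 is higher in both genotypes, holds 13 of 18 Galnt and Gcnt genes and 6 of 7 stomach markers, and across the 62 members other than B3galt5 the 2 differences had r = 0.22 (across genes, which are not independent).

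Genes that lengthen chains had differences of both signs. Of 8 tested B3gnt genes, 6 had positive and 2 negative differences, with a median of 0.24. B3gnt6, which makes the core 3 structure of intestinal mucins, had levels of -2.63 and -5.00 in knockout 1 and 2 and -4.85 and -4.41 in wild type 1 and 2. It was well above background on 1 knockout and 1 wild-type array. Knockout 1 alone was high, by 2.00, and knockout 2 was the lowest array (difference 0.82, SE 0.82).

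B3gnt9 had levels of -3.96 and -2.95 in knockout 1 and 2 and -3.15 and -2.50 in wild type 1 and 2 (difference -0.63, SE 0.50). Knockout 1 was its lowest array. B3gnt5, which starts the lacto-series glycolipids, had levels of -4.51 and -4.21 in knockout 1 and 2 and -5.30 and -4.29 in wild type 1 and 2, near background and with overlap (difference 0.44, SE 0.56). B3gnt8, chosen after its values were seen, had both knockout arrays above wild type, by 0.04 and 0.33 over the wild-type mean, and was well above background on 1 array of each genotype.

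Of 10 tested B4gal genes, 6 had positive and 4 negative differences, all between -0.31 and 0.37. B4galt1, the broad galactosyltransferase of N- and O-glycans, had levels of 4.81 and 3.93 in knockout 1 and 2 and 4.002 and 3.99 in wild type 1 and 2 (difference 0.37, SE 0.37). Its second probe also had knockout 1 highest, by 0.90 over the wild-type mean. B4galt4 had levels of 2.56 and 3.02 in knockout 1 and 2 and 3.06 and 3.15 in wild type 1 and 2. Both knockout arrays were below both wild-type arrays, with knockout 2 close to them (difference -0.31, SE 0.29), and its second probe gave -0.56. B4galt2 had levels of -3.44 and -2.11 in knockout 1 and 2, on either side of -2.60 and -2.44 in wild type 1 and 2.

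Among enzymes of the first glycolipid steps, B4galt5 and B4galt6 make lactosylceramide, from which most glycolipids grow. B4galt5 had levels of 2.47 and 1.34 in knockout 1 and 2 and 1.91 and 1.72 in wild type 1 and 2, and B4galt6 had 1.75 and 0.65 in knockout 1 and 2 and 0.95 and 1.31 in wild type 1 and 2. For both, knockout 1 was the highest and knockout 2 the lowest array, with differences of 0.09 (SE 0.41) and 0.07 (SE 0.42). A second probe of B4galt5 had knockout 1 as the lowest array, so its probes disagree. St3gal5, the GM3 synthase that takes up lactosylceramide, had levels of -1.84 and -0.52 in knockout 1 and 2 and -1.04 and -0.68 in wild type 1 and 2 (difference -0.32, SE 0.48).

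B4galnt1, the GM2 synthase, had levels of 2.71 and 2.80 in knockout 1 and 2 and 2.96 and 2.24 in wild type 1 and 2 (difference 0.16, SE 0.33). Both knockout arrays lay within the wild-type range. St8sia1, the GD3 synthase, had levels of -3.90 and -4.30 in knockout 1 and 2 and -4.17 and -4.31 in wild type 1 and 2 (difference 0.14, SE 0.45). Ugcg makes the first step, glucosylceramide, and had levels of 0.22 and -0.42 in knockout 1 and 2 and -0.10 and -0.32 in wild type 1 and 2 (difference 0.11, SE 0.33). Those genotypes overlapped too.

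Of the 6 St3gal genes, all tested, 2 had positive and 4 negative differences, with a median of -0.11. St3gal3, which sialylates type 1 chains such as B3galt5 makes, had levels of -0.22 and 1.29 in knockout 1 and 2 and 0.93 and 0.93 in wild type 1 and 2. The wild-type arrays nearly coincided, and the knockout arrays lay on either side (difference -0.40, SE 0.50). St3gal6 had levels of 1.97 and 1.21 in knockout 1 and 2 and 1.25 and 1.34 in wild type 1 and 2 (difference 0.29, SE 0.33). St3gal4, chosen after its values were seen, had the widest gap between the knockout arrays of all tested members, 3.76 and 1.13 in knockout 1 and 2, around 2.21 and 2.12 in wild type 1 and 2. Both knockout arrays were over 1 from the wild-type mean in opposite directions, so its mean difference of 0.28 (SE 0.79) describes neither.

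All 5 tested St6gal genes had negative differences, with medians relative to wild type of -0.96 in knockout 1 and -0.03 in knockout 2. St6galnac4 had levels of -5.15 and -3.60 in knockout 1 and 2 and -3.51 and -3.62 in wild type 1 and 2, and knockout 1 was not well above background (difference -0.80, SE 0.61). St6galnac6, which sialylates gangliosides and type 1 chains, had levels of 0.66 and 1.58 in knockout 1 and 2 and 1.43 and 1.98 in wild type 1 and 2 (difference -0.58, SE 0.40). Knockout 1 alone lay outside the wild-type range for both genes. St6gal1, the enzyme that caps N-glycans, had levels of -1.70 and -2.34 in knockout 1 and 2 and -1.88 and -1.39 in wild type 1 and 2 (difference -0.39, SE 0.38), with knockout 2 lowest.

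Among 4 tested St8sia genes, St8sia6, which adds a further sialic acid to O-glycans, differed by -0.75 (SE 0.73). Its levels were -1.29 and 0.75 in knockout 1 and 2 and -0.14 and 1.11 in wild type 1 and 2, in the order also seen for Galnt5 and Gcnt1. St8sia3 had levels of -3.15 and -4.26 in knockout 1 and 2 and -3.94 and -3.21 in wild type 1 and 2 (difference -0.13, SE 0.55). Knockout 2 was not well above background for St8sia3, and the genotypes overlapped.

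Fucosyltransferases ended with 4 positive and 3 negative differences among 7 tested genes. Fut2, the secretor enzyme that makes H antigen in intestinal epithelium, had levels of -2.84 and -0.97 in knockout 1 and 2 and -1.44 and -0.92 in wild type 1 and 2. Knockout 1 was 3.17-fold below the wild-type mean and knockout 2 lay within the wild-type range (difference -0.73, SE 0.63). Fut1, the other H antigen enzyme, had levels of -4.50 and -3.77 in knockout 1 and 2 and -3.05 and -3.53 in wild type 1 and 2. Both knockout arrays were lower than both wild-type arrays, by -1.21 and -0.48 from the wild-type mean. The difference was -0.85 (SE 0.47, limma's adjusted p = 1.00). Apart from B3galt5, Fut1 was the member that combined no overlap with a difference beyond 0.58. After normexp background correction, an alternative described below, its difference was 0.63, of the opposite sign.

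Fut11 had levels of -3.19 and -2.09 in knockout 1 and 2 and -3.18 and -3.32 in wild type 1 and 2 (difference 0.62, SE 0.48). Here knockout 2 alone was high. Fut4, a Lewis X enzyme, had levels of 0.14 and -1.05 in knockout 1 and 2 and -0.86 and -0.51 in wild type 1 and 2 (difference 0.23, SE 0.45). Its second probe placed knockout 2 highest, so the probes disagree.

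**Figure D4:**
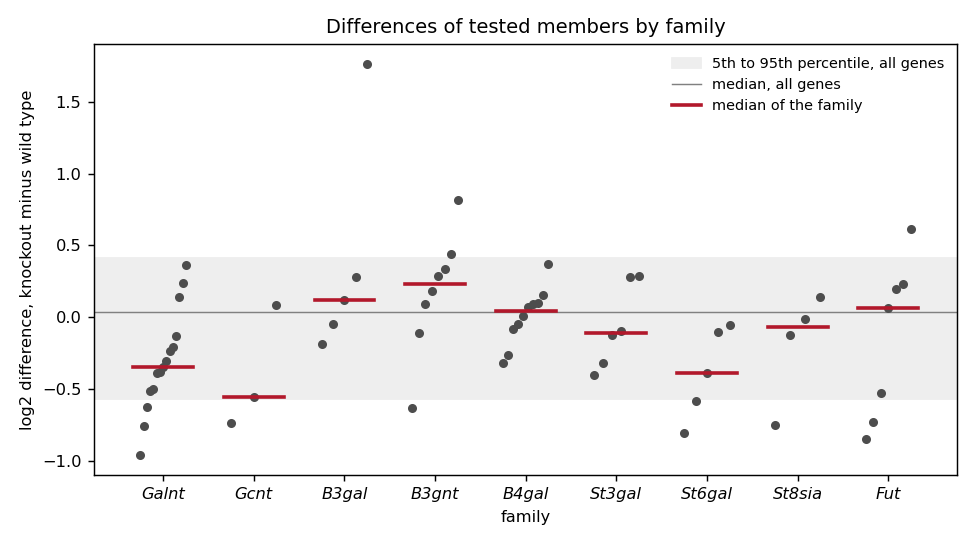
Knockout minus wild type (log2) for each tested member, by family, with the family's median as a bar. The grey band spans the 5th to 95th percentile of all 14409 tested genes, -0.57 to 0.41, and B3galt5 lies at 1.77, while the Galnt and Gcnt medians are -0.35 and -0.56.

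B3galt5 was chosen on this contrast, so it is left out of the counts in this paragraph. Among the 62 other tested members, both knockout arrays were higher than either wild-type array in 2, B3gnt8 and Galnt18, beside 8.65% of all tested genes. Both lay below in 3 genes, B4galt4, Fut1 and Galnt10, beside 6.09%. The knockout arrays were at least 1 apart on the log2 scale in 23 of 62 members, beside 19.6% of all tested genes. The wild-type arrays were in 6 of 62, beside 5.38%. The median gap between the knockout arrays was 0.72 in these members and 0.45 in all genes. Knockout 1 lay at least 1 below the wild-type mean in 13 members, beside 6.39% of all tested genes, and at least 1 above it in 2, beside 3.73%. Knockout 2 lay at least 1 above in 1 member, Fut11, beside 1.05%, and at least 1 below in 2, Galnt14 and St3gal4, beside 1.79%. The 13 low members in knockout 1 were Galnt3, Galnt5, Galnt12, Galntl6, Gcnt1, Gcnt3, B3gnt9, St3gal3, St6galnac4, St6galnac6, St8sia6, Fut1 and Fut2. The 2 high members in knockout 1 were B3gnt6 and St3gal4. Of 13 second probes of tested members that were themselves well above background on at least 2 arrays, 10 had the sign of the probe used, with a median gap of 0.053 and a largest of 0.38. Second probes that missed that filter are not counted: the one of St6galnac1, chosen after its values were seen and well above background on 1 array, gave 1.26 where the probe used gave -0.10.

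Genes that serve the same pathway without belonging to the family were read from 5 lists, and 0 of 43 tested genes passed the threshold. Of 16 genes that supply sugar nucleotides, 5 had positive and 11 negative differences, with a median of -0.12. Gne, the first enzyme of sialic acid synthesis, had levels of 2.01 and 3.77 in knockout 1 and 2 and 3.64 and 3.89 in wild type 1 and 2 (difference -0.87, SE 0.57). Gfpt1, which feeds the hexosamine pathway, had levels of 4.40 and 5.65 in knockout 1 and 2 and 5.33 and 5.84 in wild type 1 and 2 (difference -0.56, SE 0.48). Knockout 1 was the lowest array for both.

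The core 1 enzyme C1galt1 and its chaperone C1galt1c1 had differences of -0.01 (SE 0.40) and -0.02 (SE 0.31). In the list of chain starters that holds them, 2 of 6 differences were positive, and the most distant genes were Ugt8a, of galactosylceramide synthesis, at -0.68 (SE 0.69) and Gbgt1 at -0.27 (SE 0.40). Among sulfotransferases 3 of 5 differences were positive, with Chst1 at -0.46 (SE 0.32) and Chst4 at 0.32 (SE 0.40). Among glycan-removing enzymes 4 of 9 were positive, with the sialidase gene Neu2 at -0.70 (SE 0.55) and the β-galactosidase gene Glb1 at -0.46 (SE 0.38). Of 7 mucin genes, 3 were positive, and the widest differences were those of Muc1, at -2.22 (SE 1.49), and Muc5b, at -1.43 (SE 0.91). Muc1 was at -6.46 and -1.47 in knockout 1 and 2 and -2.23 and -1.26 in wild type 1 and 2, so knockout 1 was again the array that lay apart, and its Muc1 signal was not well above background, which leaves the size of that difference uncertain.

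Markers of cell types and gut regions also set knockout 1 apart. None of 119 tested marker genes in 16 lists passed the threshold. Enterocyte markers, 17 of 17 tested, had a summed signal of 1525 and 859 in knockout 1 and 2 and 1202 and 766 in wild type 1 and 2. Distal small intestine markers, 4 of 5 tested, summed to 8.50 and 1.47 in knockout 1 and 2 and 2.61 and 3.07 in wild type 1 and 2, and goblet cell markers, 10 of 10, to 807 and 732 in knockout 1 and 2 and 691 and 697 in wild type 1 and 2. Smooth muscle markers, 9 of 9, summed to 108 and 324 in knockout 1 and 2 and 189 and 216 in wild type 1 and 2, and stem cell and crypt markers, 7 of 7, to 33.4 and 59.0 in knockout 1 and 2 and 46.6 and 66.5 in wild type 1 and 2. By summed signal, knockout 1 was highest for enterocyte, distal and goblet markers and lowest for stomach, muscle and crypt markers. It was also highest for proximal small intestine markers, 5 of 5 tested. These summed to 116 and 66.0 in knockout 1 and 2 and 85.0 and 80.3 in wild type 1 and 2. A sum follows its brightest genes: 4 of 10 goblet genes, Agr2 and Spdef among them, were lower in knockout 1 than in knockout 2, and 2 of 7 crypt genes, Lgr5 and Rnf43, were higher. In the distal list, 3 of 4 genes were higher in knockout 1 than in knockout 2, with Slc51b the brightest in knockout 1, at 2.80. Fabp6 was lower in knockout 1 (-3.83) than in knockout 2 (-3.54). These single genes were chosen after their values were seen. What part these shifts have in the B3galt5 level was not tested.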

How the data were processed

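Small intestine RNA of 2 Cyp3a-/- and 2 wild type samples was measured on 1-colour Agilent arrays. Agilent Feature Extraction 11.5.1.1 is named in the submitters' processing notes and the file headers. Intensity values as deposited had the scanner software's background subtraction and spatial detrending, per the file headers, and no scaling between arrays. The authors' deposited value table holds log2 values whose scale and centring it does not state. Over 39408 probes its columns correlated at 1.00 with log2 signal less the 75th percentile of its array and the median of its probe over the 4 arrays. Its column medians were -0.108 and 0.124 for knockout 1 and 2 and 0.053 and -0.095 for wild type 1 and 2, so it keeps differences and no levels.

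Control spots and 91 to 129 outlier spots per array were left out, and no spot was saturated. Of 39429 probes, 28025 matched 1 symbol and 11404 none by unversioned accession in the RefSeq table of GRCm38.p6. That build differs from the array's, so it served for names and gene order, and promoter windows were taken from RefSeq by symbol. A probe counted as well above background if any of its spots was, as 55.2% to 64.4% of probes were. The brightest probe stood for a gene. The signal at that percentile was 322 and 175 in knockout 1 and 2 and 226 and 356 in wild type 1 and 2. The fit used limma 3.58.1 (lmFit, then eBayes with a trend) in R 4.3.3, adjusted by Benjamini-Hochberg over all tested genes, and was tested on simulated data. P-values measure the spread between these samples, which may be partly technical.

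The members, lists and tests were chosen with earlier results of these data known. Named by rule are all B3gal genes, the 3 tested members of largest absolute difference in each other family, members without overlap that differ by at least 0.58, a fixed set of glycolipid, mucin core and fucosyl genes, 2 genes per pathway list, and C1galt1, C1galt1c1, Ugcg and Muc2. Alternatives were the background, scaling, filter, probe rule and variance setting, the authors' table, a replicate block, the shared slide and leaving out each array. Normexp used median spot signals in place of the planned mean signals.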

Additional observations from a re-analysis of the deposited data

How the results depend on the processing

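With 2 arrays per genotype, single calls depended on which arrays entered. After normexp background correction, 3 genes were higher and 10 lower in all, with 1 member higher, B3galt5, and 0 members lower. As B3galt5 was chosen on this contrast, its passing here or below is no test of it. The members' median difference then became 0.043 and that of the 4 relatives of B3galt5 0.26, while the B3galt5 difference fell to 1.52. With a replicate block, 6 genes were higher and 26 lower, with B3galt5 as the 1 member higher, but the samples share only a number: across genes, the difference between the wild-type arrays and that between the knockout arrays correlated at 0.0511. With probes well above background on all 4 arrays, 0 genes passed in either direction. That filter takes out the 6 Cyp3a genes beforehand, as none was well above background in knockout, so it does not bear on their calls. Within the shared slide the members' median was -0.22 and that of the 4 relatives -0.25. Leaving out each array gave 0 to 140 genes higher and 0 to 306 lower in all, and 0 to 2 members higher and 0 to 5 lower, all of these members without knockout 2, where the lone knockout array is assumed to vary like wild type: B3galt5 and St3gal4 higher, and Galnt5, Galnt12, Gcnt1, St8sia6 and Fut2 lower. Without either wild-type array 0 genes passed. The members' median ran from -0.13 to -0.03, that of the 4 relatives from -0.14 to 0.21, and the B3galt5 difference was 2.73 without knockout 2, 0.81 without knockout 1, 1.42 without wild type 1 and 2.11 without wild type 2. Of 33 other named members, 20 changed sign without knockout 1, 1 without knockout 2, 3 without wild type 1, 7 without wild type 2, 11 after normexp, 3 within the shared slide, and 1 each with median scaling and with the mean of probes. The cause of these changes was not tested. In every other alternative run, the counts of members passing stayed at 0 and the B3galt5 difference lay between 1.73 and 1.83. Genes near background, such as B3gnt5, B3gnt6, B3gnt8, St6galnac4, St8sia1 and St8sia3, are the least certain. Fut1 and B3gnt9 were among the members that changed sign after normexp, from -0.85 to 0.63 and from -0.63 to 0.51.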
